A study of Mus musculus with 2 samples.

Results

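Ubb and Rps27a, which encode ubiquitin, and Uchl1, which encodes a ubiquitin hydrolase abundant in neurons, were followed in long reads of RNA from the left cerebral cortex of old mice. They are 3 genes of the 18534 annotated genes that had at least 1 read. They were taken by name from the tables of reads per transcript model, and every model that the authors gave to them was used. Both libraries came from B6CASTF1/J animals, first-generation offspring of a C57BL/6 by castaneus cross, at an age of 18 to 20 months, and each was made from 2 µg of total RNA. They form 1 group, with no treatment or genotype to compare, so the data show the level and the transcript forms of the genes and how closely 2 libraries matched. The libraries had separate biosample entries under 1 donor entry, and no label says that they came from separate animals. SDs thus speak of the spread between these samples alone, and that spread may be technical. The p-values cover only the error of counting reads in these libraries, and do not measure that spread.

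Ubiquitin is a small protein of 76 residues that is attached to other proteins, often as a mark for breakdown by the proteasome. Cells make it as precursors: Ubb encodes a head-to-tail chain of ubiquitin units, while Rps27a encodes 1 unit fused to a ribosomal protein. Hydrolases release single units, and UCHL1 is a hydrolase known as one of the most abundant proteins of the brain. Ubb is known as a stress-inducible gene with a role in keeping up ubiquitin levels in neurons.

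In each long-read library a read stands for 1 complementary DNA molecule, so it can show which exons were joined. Replicate 1 held 774629 reads on annotated genes and replicate 2 held 679147. Levels are given as CPM, the reads of a gene per 1000000 reads on annotated genes, and a gene with 0 reads could have up to 3.87 CPM in replicate 1 and 4.42 CPM in replicate 2. Models opposite an annotated gene held 8.85% of mouse reads in replicate 1 and 16.9% in replicate 2. The sex field reads female while a free-text line of both samples reads male, and Xist had 34 and 29 reads while the Y-linked Ddx3y, Eif2s3y, Kdm5d and Uty had 0 in both. Neuronal markers were present in both libraries, with all 8 listed genes read and a summed level of 5951 and 5533 CPM, led by Snap25. Astrocyte markers summed to 3546 and 3686 CPM, oligodendrocyte markers to 1896 and 1651 CPM, microglial markers to 342 and 356 CPM and endothelial markers to 334 and 241 CPM. Choroid plexus markers summed to 23.2 and 8.83 CPM, from 18 and 5 reads of Ttr and 0 and 1 of Kl, with Folr1, Aqp1 and Otx2 at 0 reads in both, while blood genes summed to 461 and 246 CPM. In tissue RNA, fewer cells of a type and less RNA per cell cannot be told apart.

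The coding part of Ubb-201, the leading Ubb transcript, has 918 bases and holds 4 ubiquitin units of 228 bases and 6 further bases, the stop codon included. The units are shown because their likeness decides how far a read or an intron can be placed within the gene. Sequences are those of the GENCODE M21 transcripts on mm10, written 5′ to 3′ in lower case, with capitals at the bases that differ from unit 1 of Ubb. Unit 1 of Ubb lies on the plus strand at chr11:62552146-62552373, unit 4 at chr11:62552830-62553057, and the unit of Rps27a-202 lies on the minus strand, spread over exons between chr11:29546384-29547728.
Ubb unit 1: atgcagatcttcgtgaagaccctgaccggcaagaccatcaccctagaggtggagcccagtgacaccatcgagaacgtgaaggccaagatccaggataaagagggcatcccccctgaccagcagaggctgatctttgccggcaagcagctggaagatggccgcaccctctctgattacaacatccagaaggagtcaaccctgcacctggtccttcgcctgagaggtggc
Ubb unit 4: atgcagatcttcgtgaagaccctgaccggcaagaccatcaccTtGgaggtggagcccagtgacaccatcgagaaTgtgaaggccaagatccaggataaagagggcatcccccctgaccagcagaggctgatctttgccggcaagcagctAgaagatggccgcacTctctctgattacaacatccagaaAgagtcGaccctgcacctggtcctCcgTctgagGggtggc
Rps27a unit: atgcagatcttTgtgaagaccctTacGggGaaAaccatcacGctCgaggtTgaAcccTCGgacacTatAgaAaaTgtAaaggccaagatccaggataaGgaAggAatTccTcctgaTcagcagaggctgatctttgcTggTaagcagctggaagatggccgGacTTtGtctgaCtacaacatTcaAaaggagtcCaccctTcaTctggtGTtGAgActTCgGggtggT

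All of these units translate to the same 76 residues. Within Ubb, unit 4 differed from unit 1 at 10 bases, unit 2 at 5 and unit 3 at 2, and the 6 pairs of units shared 95.6% to 99.1% of their bases. The Rps27a unit differed from unit 1 of Ubb at 44 bases in 38 codons, an identity of 80.7%. Its G and C content was 48.7%, against 57.5% in unit 1 of Ubb. After the unit, Rps27a-202 goes on for 243 bases that encode the 80 residues of the ribosomal part and the stop codon. A read of Ubb is thus separated from one of Rps27a by many bases, while the units inside Ubb are near-identical.

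For Uchl1 the exons at the start of the coding part are shown, because the reads turned on them. In Uchl1-201, the annotated principal transcript, exon 2 is a 12-base exon at chr5:66676436-66676447 on the plus strand, printed here in capitals between the coding part of exon 1 and the first 30 bases of exon 3. Uchl3, a second hydrolase of the same family, has a 12-base exon 2 as well, at chr14:101654208-101654219, shown with the last 33 bases of its exon 1.
Uchl1-201: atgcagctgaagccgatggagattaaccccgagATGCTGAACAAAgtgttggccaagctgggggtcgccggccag
Uchl3-201: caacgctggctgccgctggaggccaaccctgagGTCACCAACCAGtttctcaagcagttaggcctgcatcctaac
Both short exons hold 4 codons and are followed by an exon of 129 bases, and 5 of their 12 bases are the same. The annotated intron-retaining transcript Uchl1-203 shows what follows exon 2 of Uchl1 in the genome (chr5:66676436-66676465, exon in capitals), which begins with gt as donor sites do.
Uchl1-203: ATGCTGAACAAAgtgagtggcgcggcgcgc

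Ubb was among the most abundant transcripts of the cortex. It had 3756 reads in replicate 1 and 3778 in replicate 2, which is 4849 CPM (95% Wilson interval 4697 to 5006) and 5563 CPM (5389 to 5743). Its mean of 5206 ± 505 CPM (SD, n = 2) ranked 3 of 18534 genes, with rank 4 in replicate 1 and rank 2 in replicate 2. Molecules differ in length, and the reads of Ubb lay on models of 1497 bases on average. Among the 1739 genes whose mean model length was within 25% of that, Ubb ranked 2. The genes of like length with the nearest level in both libraries were Calm2, a calmodulin gene, Apoe, the main lipid carrier of astrocytes, and the glycolytic gene Aldoa, whose mean absolute differences from Ubb in log2(CPM + 1) over 2 libraries were 0.10, 0.15 and 0.56.

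Rps27a was read far less often. It had 116 and 84 reads, 150 CPM (125 to 180) in replicate 1 and 124 CPM (99.9 to 153) in replicate 2, with a mean of 137 ± 18.4 CPM (SD, n = 2) and rank 1619. Its models averaged 761 bases, and it ranked 92 of 384 genes of like length. Of the genes nearest to it in level, Cyb5a, a cytochrome b5 gene, and the mitochondrial complex I gene Ndufs8 differed by 0.039 and 0.052. The processed pseudogene Rps27a-ps2 had 5 reads in replicate 1 and 0 in replicate 2, and reads of Rps27a could be split with such copies. Only copies that carry the name of Rps27a were looked for, so how far its level is uncertain for this reason was not tested.

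Uchl1 stood between them. It had 395 and 316 reads, 510 CPM (462 to 563) in replicate 1 and 465 CPM (417 to 519) in replicate 2, a mean of 488 ± 31.6 CPM (SD, n = 2). It ranked 264 of all genes with reads and 44 of 1133 genes of like length, at a mean model length of 1219 bases. The genes nearest in level were Gpx4, a glutathione peroxidase gene, the proteasome subunit gene Psmc5 and the cytochrome c1 gene Cyc1, with differences of 0.036, 0.053 and 0.054. The order Ubb, Uchl1, Rps27a was the same in both libraries and their counting intervals did not overlap. It was also the order per 1000 bases of mean model length, at 3477 ± 337, 400 ± 25.9 and 180 ± 24.2 CPM per kilobase (SD, n = 2 each). Since a read stands for 1 complementary DNA molecule, these values are a rescaling and not a correction of the level.

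**Figure D1:**
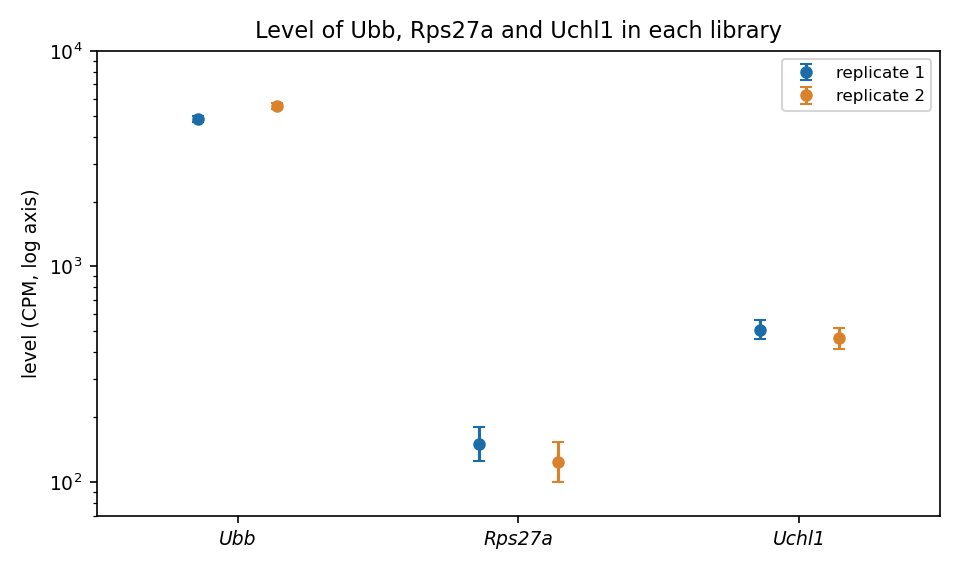
Level of Ubb, Rps27a and Uchl1 in CPM on a log axis; points are single libraries and bars are 95% Wilson intervals of the count. Ubb lies at 4849 and 5563 CPM, Uchl1 at 510 and 465 and Rps27a at 150 and 124.

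There were 32.4 reads of Ubb for each read of Rps27a in replicate 1 and 45.0 in replicate 2. Per 1000 bases of mean model length the ratio was 16.4 and 22.8. Because a read stands for 1 complementary DNA molecule, this division by length does not yield a corrected ratio of molecules.

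The libraries differed in Ubb and not detectably in the other members. Ubb was lower in replicate 1, with 4849 CPM against 5563 CPM in replicate 2 (log2 ratio -0.20, counting SE 0.033; adjusted p = 9.25e-07 by an exact conditional binomial test with Benjamini-Hochberg adjustment over 9143 genes). The difference is 1.15-fold, and with all mouse reads as the total, antisense and intergenic models included, the ratio was -0.059 and the call was lost (adjusted p = 0.412). The share of antisense reads was lower in replicate 1, 8.85% against 16.9%, and its part in the Ubb difference was not tested beyond that scaling. Of the listed cell type markers 4 were called, all of them higher in replicate 1, the direction opposite to that of Ubb. Of the markers tested, these were 1 of 5 for astrocytes, 1 of 4 for oligodendrocytes, 1 of 3 for endothelial cells and 1 of 4 for blood. For neurons 0 of 8 were called, for microglia 0 of 4 and for choroid plexus 0 of 1. Over all genes tested 1.99% were called, and 0.733% as higher in replicate 1. The astrocyte gene Gfap had 285 CPM in replicate 1 and 153 CPM in replicate 2 (adjusted p = 2.05e-05, same exact test), against the order of the summed level of its list. The myelin gene Mbp had 1490 and 1269 CPM (adjusted p = 0.0259, same exact test), the endothelial gene Cldn5 265 and 172 CPM (adjusted p = 0.0151, same exact test) and the haemoglobin gene Hba-a1 249 and 112 CPM (adjusted p = 3.05e-07, same exact test). Their part in the Ubb difference was not tested. Rps27a had a log2 ratio of 0.27 (counting SE 0.21, 95% interval -0.13 to 0.68; adjusted p = 0.704, same exact test) and Uchl1 one of 0.13 (SE 0.11, -0.081 to 0.34; adjusted p = 0.729, same exact test). The counting interval of Rps27a thus leaves room for a level up to 0.68 higher or 0.13 lower in replicate 1 on the log2 scale.

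Of the 3 members 1 was thus called, as lower in replicate 1, against 1.99% of all genes tested, 0.733% as higher and 1.26% as lower in replicate 1. The test covers counting error only and compares these libraries, not conditions. The share of calls that were higher in replicate 1 depended on the scaling, 36.8% with reads on annotated genes, 48.4% with TMM, 63.0% with DESeq2 size factors and 76.3% with all mouse reads. Under the first 3 of these scalings Ubb was called lower in replicate 1. The median log2 ratio of all tested genes was -0.028.

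**Figure D2:**
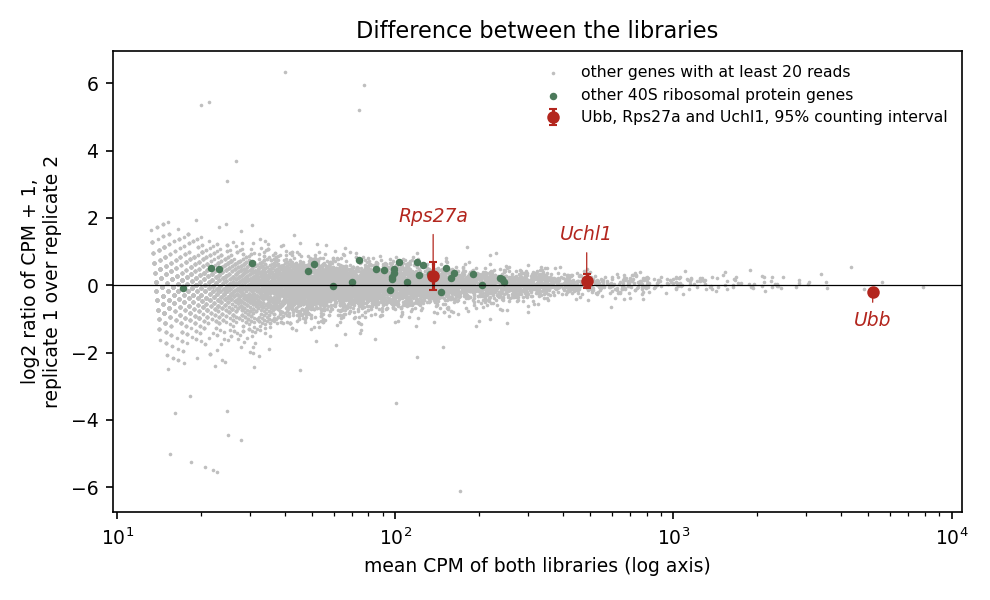
Log2 ratio of CPM + 1, replicate 1 over replicate 2, against the mean CPM on a log axis for genes with at least 20 reads. Ubb, Rps27a and Uchl1 are in red (bars are 95% counting intervals) and the other listed 40S ribosomal protein genes in green. Ubb lies at -0.20 at the right edge of the cloud, and the intervals of Rps27a and Uchl1 cross 0.

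Nearly every read of Ubb came from 1 transcript. Ubb-201, a 1499-base transcript of 2 exons at chromosome 11, 62551171 to 62553213 (mm10, plus strand), had 3708 reads in replicate 1 and 3734 in replicate 2, 98.7% (98.3 to 99.0) and 98.8% (98.4 to 99.1) of the gene. Ubb-202, which begins in the intron and ends inside the fourth unit, had 13 and 8 reads. Single-exon models that keep part or all of the intron had 29 and 27 reads, 0.772% and 0.715% of the gene. The other reads, 6 in replicate 1 and 9 in replicate 2, lay on models with an unannotated intron.

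These rare introns were compared with the 228-base unit. The 2 most frequent, with 1 read in replicate 1 and 3 in replicate 2 each, join exon 1 to a place 229 or 685 bases after the annotated start of exon 2, which is 1 unit plus 1 base and 3 units plus 1 base. They leave 3 whole units and 1 whole unit, and remove the first start codon. The 30 bases that follow both junctions are identical, and so are the 20 bases before them, which end in ag as acceptor sites do. Capitals mark the bases kept after the junction.
Ubb, 229 bases on (chr11:62552349-62552398): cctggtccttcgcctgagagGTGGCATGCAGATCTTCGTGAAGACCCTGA
Ubb, 685 bases on (chr11:62552805-62552854): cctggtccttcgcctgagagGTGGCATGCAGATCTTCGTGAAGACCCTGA
A gap of 456 bases, which is 2 units, lay inside the coding part in 1 read of replicate 1 and 0 of replicate 2. Its first bases are gt and its last are ag. The count of 0 in replicate 2 allows a share of up to 0.0794% of Ubb reads. The gapped read began at 62552369, inside unit 1, and its model has 389 bases. An ungapped stretch from 62552825 to the same end, which is exon 2 after the junction 685 bases on, has 389 bases too. Whether the gapped read was placed on the wrong units was not tested. Of the remaining 3 unannotated introns, that with exon 2 starting 12 bases late had 2 reads in replicate 1 and 1 in replicate 2, that with exon 2 starting 30 bases early had 1 in each, and that with both ends moved had 0 and 1.

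**Figure D3:**
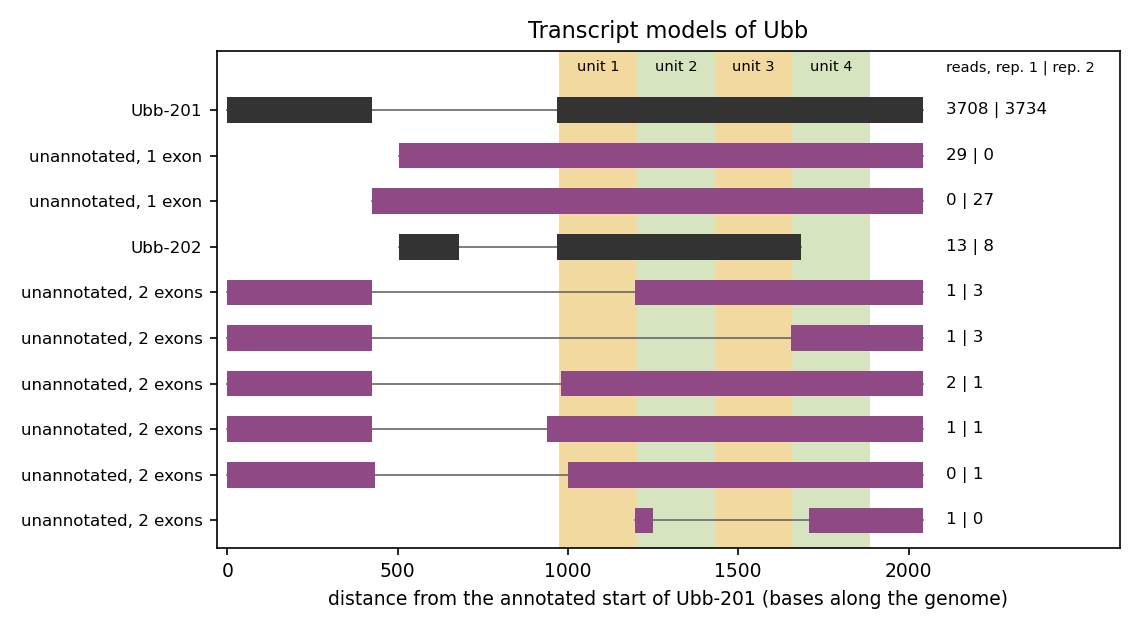
Transcript models of Ubb drawn to scale by their distance from the annotated start of Ubb-201, with exons as boxes, introns as lines and the 4 coding units shaded; annotated models are dark and unannotated ones purple, and reads are given for replicate 1 and replicate 2. Ubb-201 has 3708 and 3734 reads, and no other model has over 29.

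Rps27a was read mainly as 2 transcripts that encode the same protein. Rps27a-202, with 6 exons and 791 bases at chromosome 11, 29545846 to 29548109 (mm10, minus strand), had 93 reads in replicate 1 and 69 in replicate 2, 80.2% (72.0 to 86.4) and 82.1% (72.6 to 88.9). Rps27a-201, whose first exon begins 249 bases later, had 12 and 9 reads, 10.3% and 10.7%. Both have the same 471-base coding part. The non-coding Rps27a-204 and Rps27a-205 had 1 read each in replicate 1 and 0 in replicate 2, and Rps27a-203 had 0 in both. Single-exon models at the 3′ end had 5 reads in each library, 4.31% and 5.95%. Each of the 5 annotated introns was joined in 97 to 111 reads in replicate 1 and 70 to 79 in replicate 2, and 2 unannotated introns, which move 1 or both splice sites by 4 bases, had 3 reads in replicate 1 and 1 in replicate 2.

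Uchl1 stood apart in that none of its reads followed the annotated principal transcript. Uchl1-201, with 9 exons and 1177 bases at chromosome 5, 66676091 to 66687234 (mm10, plus strand), encodes the 223-residue enzyme and had 0 reads in both libraries. By counting error alone this allows a share of assigned reads of up to 0.759% in replicate 1 and 0.949% in replicate 2. That limit does not bound the share of molecules, since whether a molecule with the 12-base exon 2 would be assigned to Uchl1-201 was not tested. The main model was an unannotated one of 8 exons and 1169 bases, with 314 reads in replicate 1 and 239 in replicate 2, 79.5% (75.2 to 83.2) and 75.6% (70.6 to 80.0). It shares 6 of the 8 introns of Uchl1-201. Its exon 1 ends at 66676331, which is 9 bases after the annotated end at 66676322, and joins exon 3 directly, so that it lacks the 12-base exon 2 and is 3 bases shorter in that stretch. It also ends 5 bases before the annotated end of Uchl1-201.

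Counted over all models, the junction from the later end of exon 1 to exon 3 was in 318 reads of replicate 1 and 242 of replicate 2, 80.5% (76.3 to 84.1) and 76.6% (71.6 to 80.9) of Uchl1. Exon 1 was joined to exon 2 at its annotated sites in 17 and 11 reads, and all of these kept the 496-base intron after exon 2. That intron was removed in 0 reads of either library. The annotated end of exon 1 was joined straight to exon 3 in 3 reads and 1 read. In 54 and 62 reads the model begins after exon 2, among them the intron-retaining Uchl1-202 with 30 and 35 reads, 7.59% and 11.1%. Another 5′ form with an unannotated exon upstream of the annotated start had 0 reads in replicate 1 and 3 in replicate 2. Downstream, the 6 introns from exon 3 to exon 9 were joined at their annotated sites in 370 to 383 reads in replicate 1 and 290 to 306 in replicate 2, 91.8% to 97.0% of the gene.

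**Figure D4:**
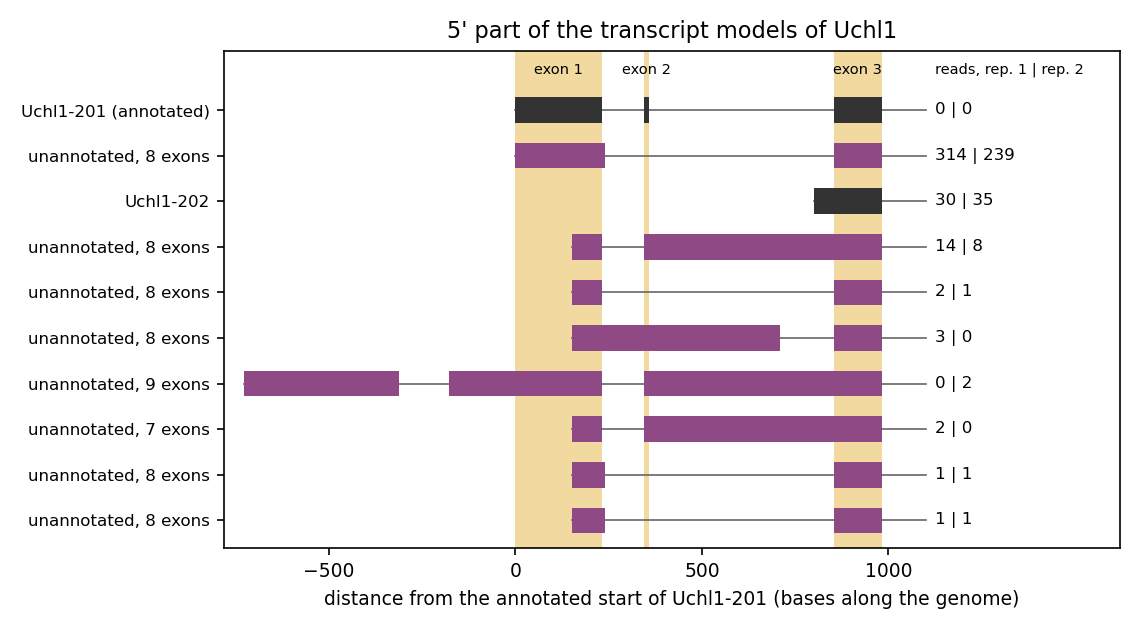
The 5′ part of the Uchl1 models with at least 2 reads in all that begin upstream of exon 3 or just before it, drawn to scale by the distance from the annotated start of Uchl1-201, whose exons 1 to 3 are shaded; reads are given for replicate 1 and replicate 2. The main model, with 314 and 239 reads, joins exon 1 to exon 3, and Uchl1-201 has 0 reads.

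The same model was classed differently by the authors' processing in the 2 libraries. The chain of introns of the main model was given as new, with an unannotated splice site, in replicate 1 and as an incomplete match in replicate 2. In replicate 2 a longer model with the upstream exon holds that chain as its end. Of the Uchl1 reads 81.3% carried the class for unannotated splice sites in replicate 1 and 1.58% in replicate 2, while 3.04% and 86.1% were classed as incomplete. Models were matched here by their introns, and the share of the main model did not differ detectably between the libraries (79.5% against 75.6%; adjusted p = 0.990, Fisher's exact test, Benjamini-Hochberg over 5961 genes). The shares of Ubb-201 and Rps27a-202 were not called either (adjusted p = 1 for both, same exact test). Of the 3 members 0 were thus called, against 0.168% of all genes, 10 of 5961, and 402 of all genes had an unadjusted p under 0.05.

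The short exon of Uchl1 was set beside other exons of its size. In protein-coding genes, internal exons of principal transcripts were taken where at least 20 reads in each library spanned them. An exon was counted once for each pair of neighbouring exon ends, so the same reads can count for more than 1 entry of a gene. Of the 40 such exons of at most 15 bases, in 37 genes, 37 had 0 reads that join both of their sides, a share of 92.5%. Of the 173 exons of 16 to 27 bases, 9.83% had none, and of the 25579 exons of 100 bases or more 1.24%. For 18 of the 40 shortest exons, most reads held instead a junction across the exon whose outer ends lay within 30 bases of the annotated ones, as in Uchl1. For 13 of the 40 most reads joined the neighbouring exons at their annotated sites. The bases added by these 18 shifted junctions differed from the length of the missing exon by -8 to 5, with a difference of 0 in 2 cases and of at most 3 in 9.

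Uchl3 showed the same arrangement. Its exon 2 was joined on both sides in 0 reads, and a junction with 14 further bases after exon 1 was in 82 reads of replicate 1 and 70 of replicate 2. With 1 more read of another shifted junction in replicate 2, shifted junctions held 82 of 82 spanning reads (100%, 95.5 to 100) and 71 of 72 (98.6%, 92.5 to 99.8). In Uchl1 they held 318 of 341 (93.3%, 90.1 to 95.5) and 242 of 254 (95.3%, 91.9 to 97.3). The tables hold models and not the bases of reads, so whether the molecules contained the 12-base exons was not tested. Uchl1 was 1 of 74 genes, of 1403 protein-coding genes with at least 100 reads in each library, in which every principal transcript had 0 reads in both.

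**Figure D5:**
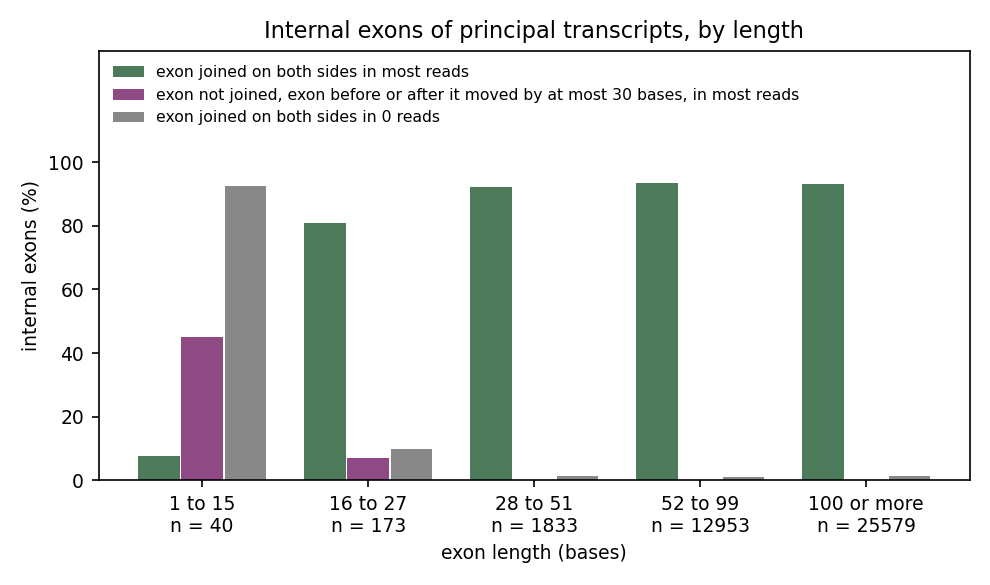
Share of internal exons of principal transcripts, by exon length in bases, that are joined on both sides in most reads (green), that are not joined in most reads while a neighbouring exon end moves by at most 30 bases (purple), or that are joined on both sides in 0 reads (grey); n is the number of exons. For exons of at most 15 bases the grey bar is at 92.5%, for exons of 100 bases or more at 1.24%. An exon is counted once for each pair of neighbouring exon ends.

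Single-exon reads were less frequent in Ubb and Uchl1 than the median over tested genes, but not in Rps27a. They were 0.772% and 0.715% of Ubb, 4.31% and 5.95% of Rps27a, and 2.78% and 2.85% of Uchl1, where they cover the last intron and exon. The median over tested genes was 4.31% in replicate 1 and 4.76% in replicate 2. None of the 3 members differed between the libraries (adjusted p = 1 for each, Fisher's exact test, Benjamini-Hochberg over 5952 genes), while 0.286% of all genes did, 17 of 5952, and 259 had an unadjusted p under 0.05.

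No annotated gene shared exons with Ubb or Uchl1 in these reads. At Rps27a, 1 read of the neighbouring gene Mtif2 in replicate 1 overlapped it by 1 base. Opposite Uchl1, unannotated single-exon models on the minus strand had 35 reads in replicate 1 and 66 in replicate 2.

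Of the genes listed for handling ubiquitin, those with at least 20 reads were tested, and their counts of calls are read against the 1.99% of all genes tested that were called. At that share, lists of this size hold few calls or none, so the counts of 0 that follow do not set these genes apart. In the UCH family of hydrolases, Uchl1 led at 488 ± 31.6 CPM (SD, n = 2), followed by Bap1, a nuclear tumour suppressor, at 276 ± 1.31 CPM, the proteasome-bound Uchl5 at 128 ± 1.74 CPM and Uchl3 at 107 ± 0.801 CPM. Their median log2 ratio was 0.021, against -0.028 over all tested genes, and 0 of 4 were called. Of 64 other deubiquitinases listed 53 were tested and 0 called, against 1.99% of all genes, with a median of 0.021. The highest of these were Otub1 at 414 ± 33.5 CPM, the proteasome-bound Usp14 at 201 ± 15.4 CPM, Usp5, which takes apart free chains, at 186 ± 13.4 CPM and Usp4 at 162 ± 2.44 CPM.

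Activating enzymes, the E1 enzymes, pass ubiquitin or a like protein on to conjugating enzymes, the E2 enzymes. Of 8 E1 enzymes listed 6 were tested and 0 called, with a median of 0.18, among them Sae1 of the SUMO pathway at 296 ± 17.2 CPM and Uba1, the main activator of ubiquitin, at 284 ± 52.4 CPM. Uba2, the partner of Sae1, had 147 ± 0.0540 CPM and Uba3, of the NEDD8 pathway, 96.8 ± 3.65 CPM. Of 35 E2 enzymes listed 31 were tested and 0 called, against 1.99% of all genes, with a median of -0.0074. The highest were Ube2v1 at 670 ± 23.3 CPM, the NEDD8 enzyme Ube2m at 507 ± 23.8 CPM and Ube2ql1 at 321 ± 33.4 CPM.

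Of the receptors and shuttles for ubiquitin 0 of 12 were called, against 1.99% of all genes, with a median of 0.036. The autophagy receptor Sqstm1 had 378 ± 16.4 CPM, the segregase Vcp 284 ± 18.4 CPM, Ubqln4 220 ± 6.86 CPM and the proteasome receptor Psmd4 203 ± 8.18 CPM. Of 11 ubiquitin-like modifiers listed 10 were tested and 0 called, with a median of 0.16, led by Ubl3 at 413 ± 27.8 CPM, Sumo2 at 286 ± 13.3 CPM and Sumo3 at 284 ± 26.2 CPM.

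As a ribosomal protein gene Rps27a was placed among 33 listed genes of the small ribosomal subunit, a chosen list on which the rank and median depend. It ranked 11 of them by mean CPM, at 137 CPM against a median of 103 CPM and a highest level of 245 CPM for Rps14. Rps3, Rps3a1 and Rps6 followed Rps14 with 242 ± 22.2, 237 ± 24.7 and 204 ± 1.46 CPM. Of the 33 genes 29 had a ratio above 0, the median log2 ratio was 0.33 against -0.028 over all genes, and 0 were called, against 1.99% of all genes. Rps27a, at 0.27, lay near that median.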

How the data were processed

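The authors deposited, for each of 2 libraries, whole-number counts of long reads per transcript model and an annotation of the models. Per the deposited notes the reads were placed on mm10 with GENCODE M21, and TALON is named in the deposited annotation. Which aligner, filters and platform were used is not given in the sources used here. Spike-in models (1.58% and 1.33% of reads) were left out. A gene's count is the sum over its models, and model lengths are as deposited. Unannotated models were matched between libraries by their introns. Gene counts were tested from 20 reads in total upward with the exact conditional binomial test (two-sided), and shares by Fisher's exact test at 20 or more reads in each library, both with Benjamini-Hochberg adjustment and a threshold of 0.05. Both were tested on simulated counts with counting error only, which cannot show how the calls hold under further variation between libraries. Ratios are replicate 1 over replicate 2 on log2(CPM + 1), and their SE covers counting error only, as do the 95% Wilson intervals and the limits of 3 counts for 0 reads. edgeR 4.0.16 (TMM) and DESeq2 1.42.0 (size factors) gave other scalings. With 1 library on each side neither can test genes. Python 3 with scipy 1.17.1 and Biopython 1.88 was used. Sequences are from GENCODE M21 transcripts, with all 3 members matched by name.

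Named genes are the members, pseudogenes that carry their name, overlapping loci, the 3 nearest genes in level, up to 4 genes per pathway list by mean CPM with every called one, the 5 models of a member with most reads and each with at least 10 reads in both libraries, and the listed cell type markers. Uchl3 introns, the short exons and the rarer models were examined after values had been seen. The members and lists were chosen with earlier results of these data known. Some genes that this rule takes are not reported here. Coordinates are 1-based on mm10.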

Additional observations from a re-analysis of the deposited data

Results flagged for a closer look

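Opposite Uchl1, single-exon models on the other strand that belong to no annotated gene had 35 reads in replicate 1 and 66 in replicate 2, a signal outside the reads counted for the gene. There were 3 such models in each library. They equal 8.86% and 20.9% of the Uchl1 reads, and 28 and 44 of them lay wholly inside the intron after exon 3. In the libraries as a whole antisense models held 8.85% and 16.9% of mouse reads. These are shares of a total that includes the antisense reads, while the values at Uchl1 are relative to its own reads. The 2 pairs of values are thus not on the same scale. The orientation of reads is not stated in the sources used here, and the source of these reads was not tested. Opposite Ubb there were 0 such reads in both libraries.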

How the results depend on the processing

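Of the values computed under an alternative, 56 held, 14 moved, 4 became weaker, 2 stronger and 1 reversed. Some of the 56 held by construction and are no evidence of stability. With 2 libraries, a value that leaves out 1 of them always lies within 1 SD of the mean. A changed pseudocount kept the adjusted p, and Ubb and Uchl1 had no named pseudogene with reads to add. The mean CPM of Ubb was 4471 with all mouse reads as the total, 7443 with reads of annotated transcripts only and 5948 with multi-exon models only. That of Uchl1 was 421, 67.4 and 545 under the same settings, the 67.4 leaving out its unannotated main model, and that of Rps27a was 182 with annotated transcripts only. With annotated transcripts only the log2 ratio of Uchl1 turned to -0.55, which was not called (adjusted p = 0.712, exact binomial test). The log2 ratio of Ubb was -0.059 with all mouse reads, no longer called (adjusted p over its alternatives 7.54e-12 to 0.412, exact binomial test). Genes called numbered 325 with all mouse reads, 55 with annotated transcripts only and 78 with multi-exon models only, against 182. Shares of the major transcript called numbered 17 with at least 50 reads in each library, against 10. Leaving out incomplete and genomic models gave a mean major share of 99.5% for Ubb, 85.6% for Rps27a and 42.2% for Uchl1. The main model of Uchl1 is classed as incomplete in replicate 2, so this filter removes it from that library alone. Its 42.2% is thus a mean over libraries and the share of neither. Single-exon shares were then 0% for each, which the filter fixes in advance, since all single-exon models of the members are of these classes. Single-exon calls over all genes numbered 0, against 17. Without models of 1 read the share of Rps27a was 83.0%. Leaving out a replicate gave 4849 to 5563 CPM for Ubb, 124 to 150 for Rps27a and 465 to 510 for Uchl1. No paired analysis was possible because there was 1 group.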
